A study of Mus musculus with 7 samples.

Results

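Type I interferon stimulated genes are the genes that cells switch on after interferon alpha or beta binds its receptor. The 41 genes described here were taken as a named list, chosen with earlier results of these data known. Their counts beside all genes therefore describe the list and are not an independent test of it. All 41 were found by symbol among the 53465 gene IDs of the count table through the GENCODE M21 annotation. All 41 genes also passed the filter on low counts that left 14784 genes for testing. They were measured by RNA-seq in cells sorted from mouse liver for CD4 and CD25, surface proteins that together enrich for regulatory T cells (Treg). KO_MCD stands for 3 libraries from CD73 KO mice fed for 4 weeks a diet deficient in methionine and choline. WT_MCD stands for 2 libraries from wild type C57BL/6 mice on that deficient diet for the same 4 weeks, and WT_NCD for 2 libraries from wild type C57BL/6 mice on a normal control diet. The deficient diet produces fatty, inflamed liver without obesity. CD73, the product of Nt5e, is the ectoenzyme that makes adenosine from AMP outside the cell. The labels give neither the strain of the CD73 KO mice, nor the deleted part of the gene, nor whether a group's libraries represent different animals. The p-values below therefore reflect only how far these libraries spread, and that spread could be technical. No CD73 KO mice on the control diet were analysed here, so genotype can be compared on the deficient diet only.

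The pathway begins when a type I interferon binds the receptor made of IFNAR1 and IFNAR2, which activates the kinases JAK1 and TYK2. These phosphorylate STAT2, which joins IRF9 in a complex called ISGF3 that enters the nucleus and binds the interferon-stimulated response element, or ISRE. The induced proteins detect foreign nucleic acid, block viral replication and tune the pathway itself. Many of these genes are also induced by interferon gamma, whose pathway acts through a different element called GAS, so their transcripts alone do not tell which interferon acted. T cells keep a basal level of them without infection.

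To show what the members share in their promoters, RefSeq promoter sequences (build GRCm38.p6) were searched in the 250 bases before each transcription start. At least 1 promoter was listed for 30 of the 41 genes. They had 37 windows, and for 27 the first 20 bases after the start lay in a GENCODE transcript of the gene. Some windows also touch exons of their own gene, so a missing core may reflect a different start. The ISRE core, searched on both strands as GAAA followed by any 2 bases and GAAA again, was present in 13 of these 30 genes (43.3%) and in 936 of 27025 mouse genes with a listed promoter (3.46%). The GAS core TTCNNNGAA, which reads the same on both strands apart from its 3 free bases, was present in 4 of 30 genes (13.3%) and in 2197 of 27025 (8.13%). A match is a description of letters, not evidence of binding. The windows shown are those of the IFIT and OAS genes that held the core, genes used as textbook interferon responders, of Isg15, and of Stat2, which is itself part of ISGF3. The listed promoters of Ifit2, Oasl1 and Oasl2 held no core. Capitals mark the ISRE core or overlapping cores. A core on the opposite strand reads TTTC, 2 bases, TTTC.
Isg15 (chr4:156200860-156200911, minus strand): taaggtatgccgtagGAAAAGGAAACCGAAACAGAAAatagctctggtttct
Ifit1 (chr19:34640770-34640828, plus strand): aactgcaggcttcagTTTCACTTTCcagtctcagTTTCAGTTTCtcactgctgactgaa
Ifit3 (chr19:34583372-34583431, plus strand): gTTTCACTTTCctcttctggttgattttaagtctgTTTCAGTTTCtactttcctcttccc
Oas1a (chr5:120907526-120907560, minus strand): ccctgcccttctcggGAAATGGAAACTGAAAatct
Oas3 (chr5:120777710-120777749, minus strand): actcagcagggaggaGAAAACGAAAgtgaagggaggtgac
Stat2 (chr10:128270261-128270300, plus strand): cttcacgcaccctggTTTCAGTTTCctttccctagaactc
Isg15 held 3 overlapping cores and Oas1a 2, while Ifit1 and Ifit3 held 2 separate cores each. The member genes also cluster in the genome, with 19 of the 41 lying in 7 groups of neighbours that are at most 500000 bases apart. These include 4 Ifi200 genes on chromosome 1, 3 IFIT genes on chromosome 19, and Parp14, Parp9 and Dtx3l on chromosome 16.

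Library totals ran from 19731501 to 24398738 counts, so that a count of 0 allows a level of up to 0.129 to 0.158 CPM (counts scaled to library size) in a library, for counting error only. Nt5e was 5.88, 14.5 and 6.43 CPM in KO_MCD, 177 and 87.6 in WT_MCD, and 243 and 241 CPM in WT_NCD, so every library was on the side its label gives. Foxp3, the defining Treg factor, was between 108 and 287 CPM in all 7 libraries. Macrophage RNA was also present and uneven within groups: the summed level of 14 macrophage and Kupffer cell markers was 12740, 9554 and 7436 CPM in KO_MCD, 2430 and 32990 in WT_MCD, and 10830 and 1181 CPM in WT_NCD. WT_MCD 2 and WT_NCD 1 thus stood apart from the other library of their group, and the results that rest on them are also given without them. Counts were tested with edgeR's quasi-likelihood test over all 14784 genes with Benjamini-Hochberg adjustment, and no gene in the table passed an adjusted p of 0.05 in any of the 3 comparisons. In a bulk library, fewer cells of a type and less RNA per cell cannot be told apart.

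Per kilobase of exon, the members differed widely in level. Ly6e, which encodes a GPI-anchored surface protein of lymphocytes, was highest at a mean of 470.1 CPM per kilobase over the 7 libraries, followed by the immunity-related GTPase gene Ifi47 at 242 and Samhd1 at 105. Ifi44 and Oas2 were lowest at 1.19 and 1.31 CPM per kilobase. The genes most often used to read out an interferon response were low on this scale: Isg15 stood at 6.15, Irf7 at 5.33 and Mx1 at 3.13 CPM per kilobase, against 28.3 for Ifit1. Isg15 ranged from 2.88 to 6.89 CPM over all 7 libraries. Ifi44 had no count in KO_MCD 2 and Oasl1 none in WT_MCD 1. Summed over the 41 genes, the level was 5423, 5041 and 5193 CPM in KO_MCD, 6228 and 6566 in WT_MCD, and 8188 and 11100 CPM in WT_NCD. The groups did not overlap in this sum, but they did once it was divided by T cell markers, as given further on. Ly6e and Samhd1 are the 2 genes with the most reads. Without them the sum was 3341, 3196 and 2939 CPM in KO_MCD, 3395 and 3809 in WT_MCD, and 5079 and 6781 CPM in WT_NCD.

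**Figure D1:**
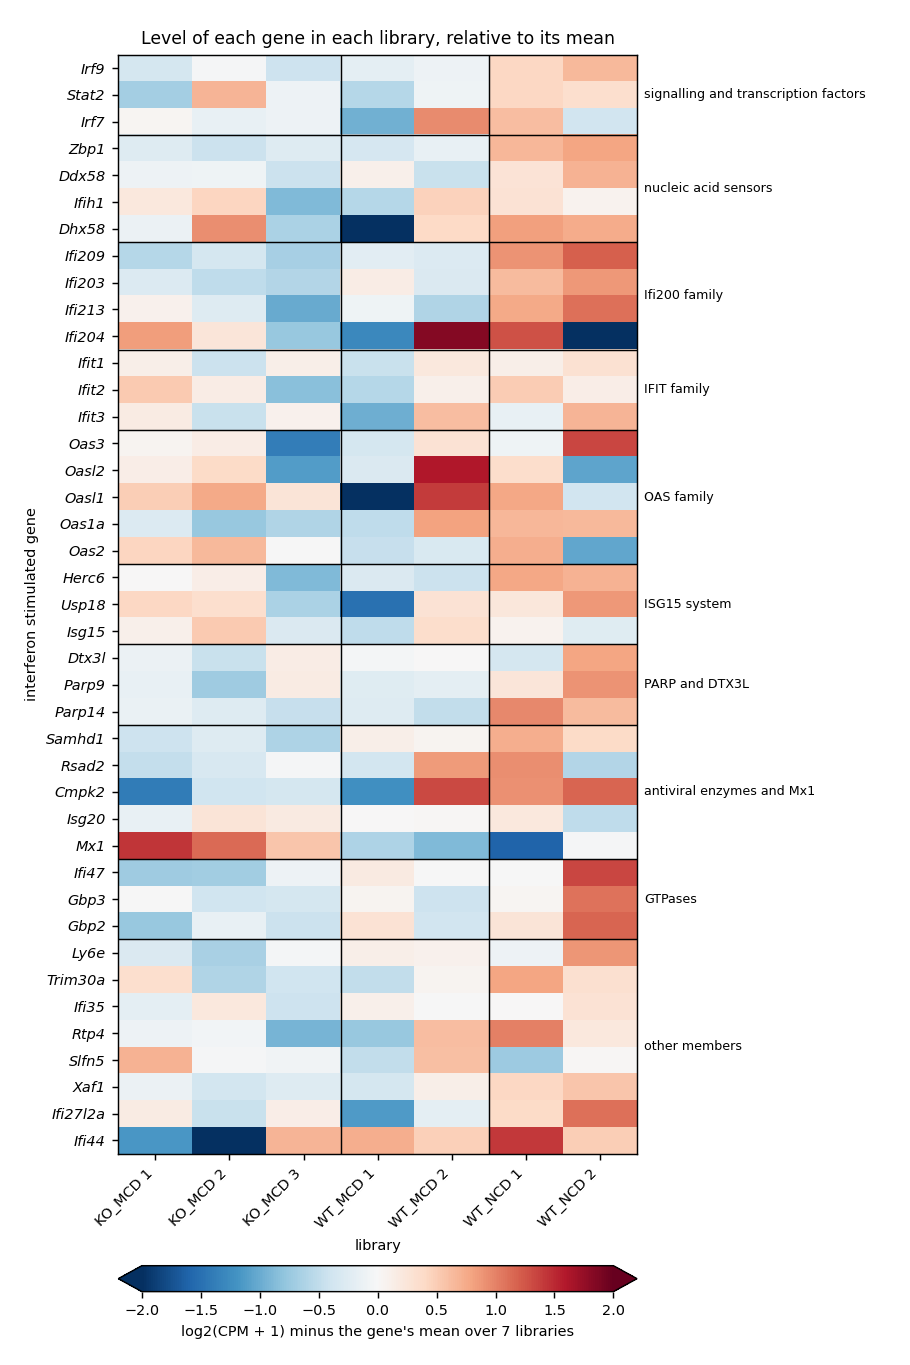
Level of the 41 genes (rows, grouped by role) in the 7 libraries (columns), coloured by log2(CPM + 1) minus the mean of that gene over the libraries, with colours capped at 2 and -2. Most rows are darkest red in a WT_NCD column, with WT_NCD 2 the highest library for 19 genes and WT_NCD 1 for 8, while Mx1 is reddest in KO_MCD and Ifi204 and Oasl2 in WT_MCD 2.

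The first question was how these genes differed between the diets in wild type mice. Most of them stood lower on the deficient diet: 33 of 41 had a log2 fold change below 0 in WT_MCD against WT_NCD, where 47.2% of all tested genes did. Their median log2 fold change was -0.58, against a median of 0.04 over all genes tested. Every WT_MCD library was below every WT_NCD library for 16 of the 41 genes (39.0%, with 14.8% of all genes), and above for 0 (16.8% of all genes). By edgeR, 8 genes were lower at an unadjusted p under 0.05 (2.04% of all genes) and 0 were higher (3.96% of all genes), and 0 passed an adjusted p of 0.05, as over all genes (0%). The smallest adjusted p among them was 0.548. The 8 were Ifi209, Parp14, Zbp1, Ifi213, Ifi27l2a, Ifi203, Herc6 and Irf9. Fewer genes were lower at that threshold without WT_NCD 2 or without WT_MCD 1, runs that left 1 library in a group. The median of the 41 was -0.85 without both WT_NCD 1 and WT_MCD 2, in each wild type group the library with more macrophage marker RNA. The KO_MCD libraries, at 7436 to 12740 CPM of these markers, were kept in that run. Of the 8, 4 (Parp14, Zbp1, Herc6 and Irf9) have no near copy in the genome with which reads could be confused. Exons of Parp14, Herc6 and Irf9 do overlap those of another gene on the same strand (Gm49730, Gm45193 and Rnf31), which may affect their counts. In the same comparison 9 of 10 T cell marker genes had a log2 fold change below 0, with a median of -0.51. Of 10 Treg marker genes 7 did, with a median of -0.095. Levels relative to the T cell markers are given further on.

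Of these 8 genes, Ifi209, Ifi213 and Ifi203 belong to the Ifi200 family. Its proteins bind DNA or other nucleic acids in the nucleus and cytosol, and several can feed the STING pathway. Ifi209 (chromosome 1, 173630917 to 173647928, plus strand, GRCm38) was 207, 243 and 194 CPM in KO_MCD, 267 and 256 in WT_MCD, and 577 and 706 CPM in WT_NCD. Both WT_NCD libraries were more than double any of the other 5, and its log2 fold change in WT_MCD against WT_NCD was -1.30 ± 0.27 (SE, edgeR adjusted p = 0.548). Ifi213 was 156, 124 and 72.7 CPM in KO_MCD, 139 and 97.0 in WT_MCD, and 250 and 318 CPM in WT_NCD, with a log2 fold change of -1.27 ± 0.42 in WT_MCD against WT_NCD (adjusted p = 0.775). Ifi203 was 190.4, 161 and 153 CPM in KO_MCD, 255 and 189 in WT_MCD, and 358 and 420 CPM in WT_NCD, a log2 fold change of -0.81 ± 0.29 in WT_MCD against WT_NCD (adjusted p = 0.781). In all 3 genes the 5 deficient-diet libraries lay below both WT_NCD libraries without overlap. The fourth, Ifi204, did not share the pattern. It was 64.4, 42.5 and 20.7 CPM in KO_MCD, 14.1 and 130 in WT_MCD, and 88.3 and 7.39 CPM in WT_NCD. Its high libraries within the wild type groups, WT_MCD 2 and WT_NCD 1, were also those of the macrophage gene Lyz2, which was 11320, 8374 and 6151 CPM in KO_MCD, 1837 and 26680 in WT_MCD, and 7757 and 845 CPM in WT_NCD. Its log2 fold change in WT_MCD against WT_NCD, 0.59 with all libraries, was -1.76 without WT_MCD 2.

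Ifi200 genes are similar in sequence, so that counting may have split their reads, and their promoters are related too. The 250-base windows of Ifi203, Ifi209 and Ifi213 shared a run of 10 bases, AAATCGAAAG, which was their longest common stretch. It overlaps the ISRE core of Ifi203 and Ifi213, while the Ifi209 window holds no full core. Over all listed promoters the run was found, on either strand, in 10 of 27025 genes (0.037%). Besides these 3, those were Ifi206, Ifi208, Ifi214 and Mndal of the same family, and Gm30039, Gm36360 and Olfr885. The shared run is in capitals.
Ifi203 (chr1:173942493-173942551, minus strand): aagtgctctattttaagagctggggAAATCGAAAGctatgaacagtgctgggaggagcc
Ifi209 (chr1:173630756-173630815, plus strand): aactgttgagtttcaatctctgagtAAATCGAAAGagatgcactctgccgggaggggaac
Ifi213 (chr1:173599310-173599369, minus strand): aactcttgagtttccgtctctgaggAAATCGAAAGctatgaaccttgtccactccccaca
Ifi206, Ifi208, Ifi214 and Mndal, family members outside the list of 41, are named here because of that run. All had a negative log2 fold change in WT_MCD against WT_NCD, where 47.2% of all genes did, from -2.02 for Ifi214 to -0.63 for Mndal. Exons of Mndal overlap those of Ifi203 on the same strand, so their reads may be shared. The run was taken from 3 genes that were all lower themselves, so whether it goes with the diet difference was not tested. Ifi204 has no listed promoter. The other 3 Ifi200 genes on the list of further interferon targets went the other way, with log2 fold changes of 1.80 ± 1.117 for Ifi205, 0.86 ± 0.92 for Ifi211 and 0.51 ± 1.43 for Ifi207 (SE, edgeR adjusted p of 0.826, 0.971 and 1). These 3 were highest in WT_MCD 2, at 41.1 CPM for Ifi205, 72.2 CPM for Ifi211 and 119.8 CPM for Ifi207, the library richest in macrophage markers. The part of those cells in these values was not tested. Ifi214 was 24.0, 34.9 and 16.5 CPM in KO_MCD, 10.1 and 6.98 in WT_MCD, and 34.5 and 34.7 CPM in WT_NCD.

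Of the cytosolic sensors, ZBP1 binds left-handed Z-form nucleic acid and can start necroptosis. Zbp1 was 142, 126 and 142 CPM in KO_MCD, 134 and 153 in WT_MCD, and 269 and 293 CPM in WT_NCD, and the 5 deficient-diet libraries lay in a narrow band at about the same level. The log2 fold change was -0.97 ± 0.27 in WT_MCD against WT_NCD (edgeR adjusted p = 0.712). Ddx58, which encodes the RNA sensor RIG-I, was 105, 106 and 84.3 CPM in KO_MCD, 122 and 83.3 in WT_MCD, and 137 and 185 CPM in WT_NCD. Ifih1, which encodes the long double-stranded RNA sensor MDA5, overlapped between groups at 42.2 to 106 CPM in KO_MCD, 52.3 and 108 in WT_MCD, and 96.3 and 82.0 CPM in WT_NCD. Dhx58, encoding their regulator LGP2, was 14.1, 30.3 and 9.67 CPM in KO_MCD, 2.74 and 20.7 in WT_MCD, and 27.9 and 26.6 CPM in WT_NCD. All 4 sensors had a log2 fold change below 0 in WT_MCD against WT_NCD, and 1 of them, Zbp1, had an unadjusted p under 0.05.

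The PARP genes behaved alike in direction. PARP14 and PARP9 are ADP-ribosyltransferases, and DTX3L is the ubiquitin ligase that pairs with PARP9. Parp14 was 71.4, 65.7 and 56.7 CPM in KO_MCD, 65.4 and 55.7 in WT_MCD, and 154 and 122 CPM in WT_NCD, a log2 fold change of -1.19 ± 0.31 in WT_MCD against WT_NCD (edgeR adjusted p = 0.704). The highest of the 5 deficient-diet libraries did not reach the lower WT_NCD library. Its neighbour Parp9 was 74.6, 50.6 and 92.9 CPM in KO_MCD, 70 and 72.5 in WT_MCD, and 98.6 and 156 CPM in WT_NCD, again without overlap. Dtx3l was 136, 108 and 162 CPM in KO_MCD, 143 and 148 in WT_MCD, and 115 and 253 CPM in WT_NCD, where only WT_NCD 2 was high. Without that library its log2 fold change in WT_MCD against WT_NCD was 0.35 in place of -0.34.

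The ISGF3 genes were split. Irf9, the DNA-binding subunit, was 201, 253 and 192 CPM in KO_MCD, 224 and 240 in WT_MCD, and 341 and 403 CPM in WT_NCD, with all 5 deficient-diet libraries below both WT_NCD libraries (log2 fold change -0.69 ± 0.28 in WT_MCD against WT_NCD, edgeR adjusted p = 0.808). Stat2 was 50.1, 130 and 74.6 CPM in KO_MCD, 54.2 and 75.9 in WT_MCD, and 108 and 102 CPM in WT_NCD, so that KO_MCD 2 stood above both WT_NCD libraries. Irf7, the factor that amplifies interferon production, was 19.0, 16.5 and 17.2 CPM in KO_MCD, 9.02 and 36.3 in WT_MCD, and 28.9 and 13.9 CPM in WT_NCD. Its groups overlapped, and its log2 fold change in WT_MCD against WT_NCD of 0.09 was -1.24 without WT_MCD 2 and 0.745 without WT_MCD 1.

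Ifi27l2a, a gene of a small membrane protein with a near copy next to it, had the most negative log2 fold change of the 41 in WT_MCD against WT_NCD, -1.41 ± 0.49 (edgeR adjusted p = 0.779). It was 46.5, 30.2 and 45.2 CPM in KO_MCD, 18.3 and 35.9 in WT_MCD, and 54.3 and 89.4 CPM in WT_NCD. The pro-apoptotic gene Xaf1 and the gene of the ISG15 ligase Herc6 also had all 5 deficient-diet libraries below both WT_NCD libraries. Xaf1 ranged from 43.6 to 52.2 CPM in KO_MCD and was 44.4 and 61.7 in WT_MCD and 76.1 and 84.1 CPM in WT_NCD. Herc6 was 37.1, 40.4 and 19.4 CPM in KO_MCD, 30.1 and 27.3 in WT_MCD, and 63.7 and 60.1 CPM in WT_NCD, a log2 fold change of -1.11 ± 0.45 in WT_MCD against WT_NCD. Trim30a, whose product restrains innate signalling in mice, was 254, 132 and 153 CPM in KO_MCD, 142 and 209 in WT_MCD, and 350 and 251 CPM in WT_NCD, and KO_MCD 1 just overlapped WT_NCD.

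The low-level and uneven members give the rest. Rtp4, a chaperone of cell surface receptors, was 87.6, 91.1 and 49.0 CPM in KO_MCD, 55.6 and 145 in WT_MCD, and 191 and 109 CPM in WT_NCD, so that KO_MCD lay below WT_NCD but WT_MCD 2 did not. Oas1a was 5.15, 3.40 and 3.86 CPM in KO_MCD, 4.23 and 12 in WT_MCD, and 10.7 and 10.7 CPM in WT_NCD, again with every KO_MCD library below WT_NCD. Rsad2, whose product viperin makes a chain-ending nucleotide, was 22.3, 25.1 and 31.1 CPM in KO_MCD, 24.2 and 57.8 in WT_MCD, and 61.0 and 20.7 CPM in WT_NCD. These values overlap throughout. Oas3 ranged from 17.0 to 117 CPM, Oasl1 from 0 to 24.6 CPM and Ifi44 from 0 to 15.6 CPM over the 7 libraries.

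Of the 12 genes with all 5 deficient-diet libraries below WT_NCD, 8 had a listed promoter, and 2 of these 8, Ifi203 and Ifi213, held an ISRE core. Of the other 22 members with a listed promoter, 11 did. The 12 were Ddx58, Herc6, Ifi203, Ifi209, Ifi213, Ifi27l2a, Irf9, Parp14, Parp9, Samhd1, Xaf1 and Zbp1.

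**Figure D2:**
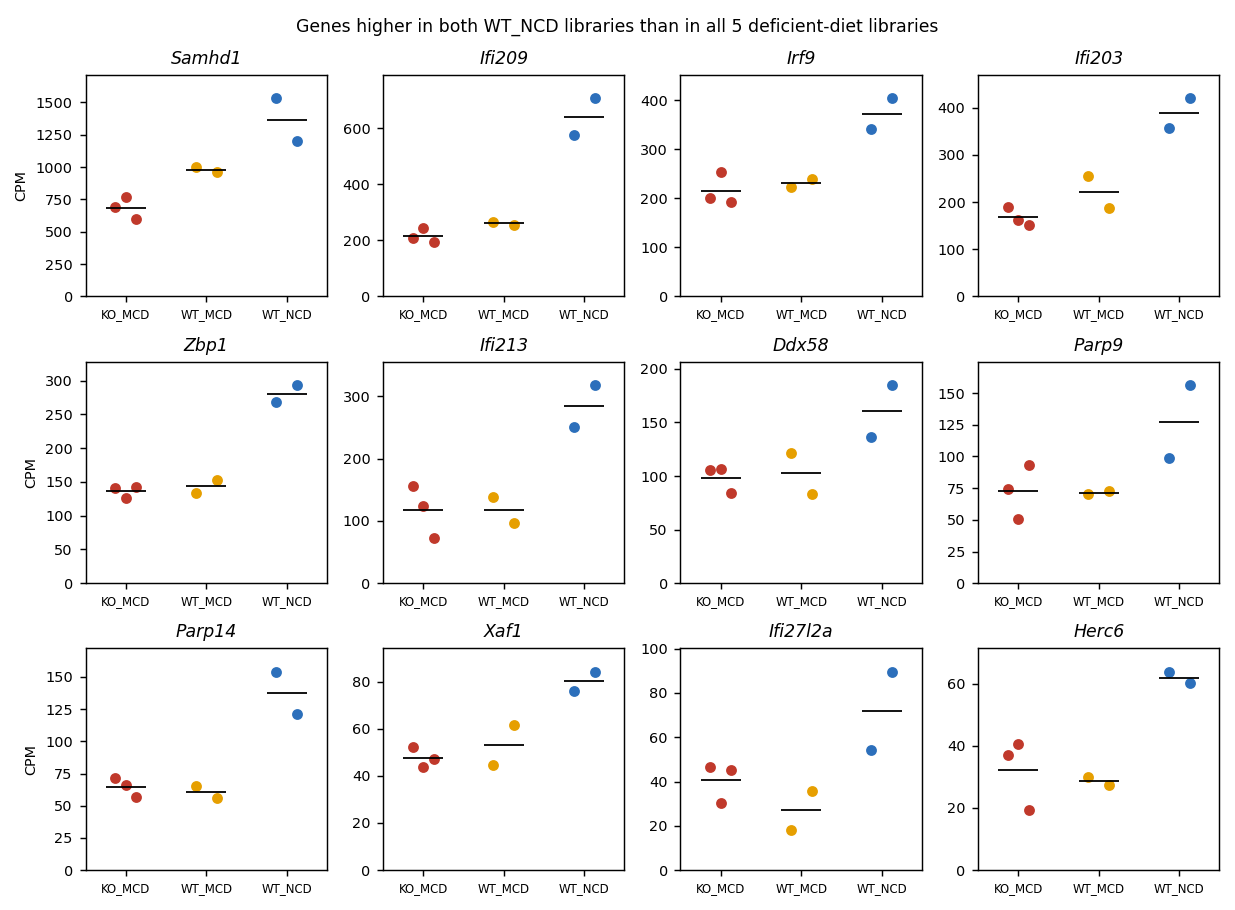
CPM (y axis, from 0) of the 12 genes whose 5 deficient-diet libraries all lie below both WT_NCD libraries. Each point is 1 library, black bars are group means, and each panel has its own scale. For Ifi209 the points are 194 to 243 in KO_MCD, 256 and 267 in WT_MCD, and 577 and 706 in WT_NCD.

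Another set of members was not separated over the 5 deficient-diet libraries. The IFIT genes, whose proteins hold back foreign RNA from translation, overlapped between KO_MCD and both wild type groups. Ifit1 was 80.1, 54.4 and 80.3 CPM in KO_MCD, 53.8 and 85.7 in WT_MCD, and 79.9 and 91.7 CPM in WT_NCD, a spread of 1.70-fold between the highest and lowest library. Ifit2 was lower in both WT_MCD libraries than in both WT_NCD libraries, but ranged from 38.3 to 100.4 CPM within KO_MCD, and Ifit3 ranged from 14.8 to 48.6 CPM over the 7 libraries. Of these 3, Ifit1 and Ifit3 carry a pair of ISRE cores each, shown above. The log2 fold changes of the 3 in WT_MCD against WT_NCD lay between -0.54 and -0.30. Of the OAS family, which makes the 2-5A messenger of RNase L or, for the OAS-like members, acts without it, 0 of 5 had an unadjusted p under 0.05 in any comparison. Oasl2 had the most positive log2 fold change of all 41 in WT_MCD against WT_NCD, 1.17 ± 0.83 (edgeR adjusted p = 0.847). It was 30.3, 36.2 and 12.2 CPM in KO_MCD, 22.6 and 86.2 in WT_MCD, and 35.5 and 12.8 CPM in WT_NCD. That value came from WT_MCD 2, without which it was -0.10.

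Other values in the higher direction were also small or rested on 1 library. Slfn5, a member of the schlafen family, was 103, 61.9 and 59.9 CPM in KO_MCD, 44.8 and 96.8 in WT_MCD, and 37.9 and 64.1 CPM in WT_NCD. Its log2 fold change in WT_MCD against WT_NCD was 0.47 ± 0.51, and -0.19 without WT_MCD 2. The exonuclease gene Isg20 was 11.0, 15 and 14.05 CPM in KO_MCD, 12.5 and 12.5 in WT_MCD, and 14.4 and 8.38 CPM in WT_NCD. Usp18, the gene of the enzyme that removes ISG15, instead had a negative log2 fold change in WT_MCD against WT_NCD, -0.965 ± 0.722. It was 28.5, 27.1 and 13.3 CPM in KO_MCD, 6.88 and 26.15 in WT_MCD, and 25.1 and 39.3 CPM in WT_NCD. Both genes, and Rsad2 and Ifi35 too, overlapped between all groups. Over the 41 genes, 15 had both their higher wild type libraries in WT_MCD 2 and WT_NCD 1, the order of the macrophage markers, and 10 had the reverse order, where 22.0% and 23.4% of all tested genes did. The 10 were Ddx58, Gbp2, Gbp3, Ifi203, Ifi209, Ifi213, Ifi35, Ifi47, Ly6e and Mx1.

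CD73 KO mice on the deficient diet were then compared with wild type mice on the control diet. This comparison changes genotype and diet together and shares its WT_NCD libraries with the one above, so the values are given side by side and not as a second observation. A log2 fold change below 0 was found for 34 of 41 genes (46.9% of all genes tested), with a median of -0.74 against 0.06 over all genes. By edgeR, 14 were lower at an unadjusted p under 0.05 (4.25% of all genes), 1, Mx1, was higher (4.72%), and 0 passed an adjusted p of 0.05 (0% of all genes). The 14 became 8 without KO_MCD 1, where 482 of 14274 tested genes were lower, and 9 without KO_MCD 2, where 464 of 14389 were. Fewer were also lower without WT_NCD 2, a run that left 1 library in that group. Every KO_MCD library was below both WT_NCD libraries for 18 genes (12.8% of all genes) and above for 1, Mx1 (13.4%). Taking all 5 deficient-diet libraries together, 12 genes lay below both WT_NCD libraries (29.3%, with 7.03% of all genes) and 0 lay above (6.79% of all genes). With WT_NCD 2 as the only control-diet library the 12 became 22. Such a count grows when fewer libraries must agree, and its share over all genes is not reported here.

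Ifi209 had the smallest p of the 41 in this comparison, with a log2 fold change of -1.58 ± 0.24 (edgeR adjusted p = 0.203). The next were Ifi203 at -1.21 ± 0.26 and Zbp1 at -1.04 ± 0.24, both with an adjusted p of 0.32. Samhd1 encodes a dNTP-hydrolysing enzyme that starves reverse transcription. It was 691, 767 and 599 CPM in KO_MCD, 998 and 961 in WT_MCD, and 1531 and 1203 CPM in WT_NCD. The 3 groups did not overlap with one another, and the log2 fold change in KO_MCD against WT_NCD was -0.995 ± 0.241 (adjusted p = 0.335). In DESeq2, run as an alternative, Ifi203, Ifi209, Parp14, Samhd1 and Zbp1 passed an adjusted p of 0.05 in KO_MCD against WT_NCD, and Ifi209, Parp14 and Zbp1 in WT_MCD against WT_NCD. DESeq2 called 746 and 393 genes of the table in these comparisons, and limma voom called 0 of the 41 in either.

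The GTPase genes, which are strongly induced by interferon gamma as well, had their lowest group means in KO_MCD. Ifi47 was 327, 331 and 503 CPM in KO_MCD, 607 and 536 in WT_MCD, and 533 and 1359 CPM in WT_NCD. Its KO_MCD libraries were the 3 lowest of the 7, with a log2 fold change of -1.29 ± 0.41 in KO_MCD against WT_NCD (edgeR adjusted p = 0.465). Gbp2 was 118, 181 and 147 CPM in KO_MCD, 243 and 153 in WT_MCD, and 240 and 449 CPM in WT_NCD. Gbp3 was 272, 208 and 214 CPM in KO_MCD, 284 and 205 in WT_MCD, and 283 and 583 CPM in WT_NCD. For these genes WT_NCD 2 alone stood far above the rest, and WT_NCD 1 lay at the level of a WT_MCD library. Ly6e was likewise high in WT_NCD 2 alone, at 1391, 1078 and 1655 CPM in KO_MCD, 1835 and 1795 in WT_MCD, and 1578 and 3119 CPM in WT_NCD. Cmpk2, a mitochondrial nucleotide kinase gene next to Rsad2, was 7.67, 16.3 and 16.8 CPM in KO_MCD, 8.74 and 55.8 in WT_MCD, and 42.0 and 50.3 CPM in WT_NCD.

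**Figure D3:**
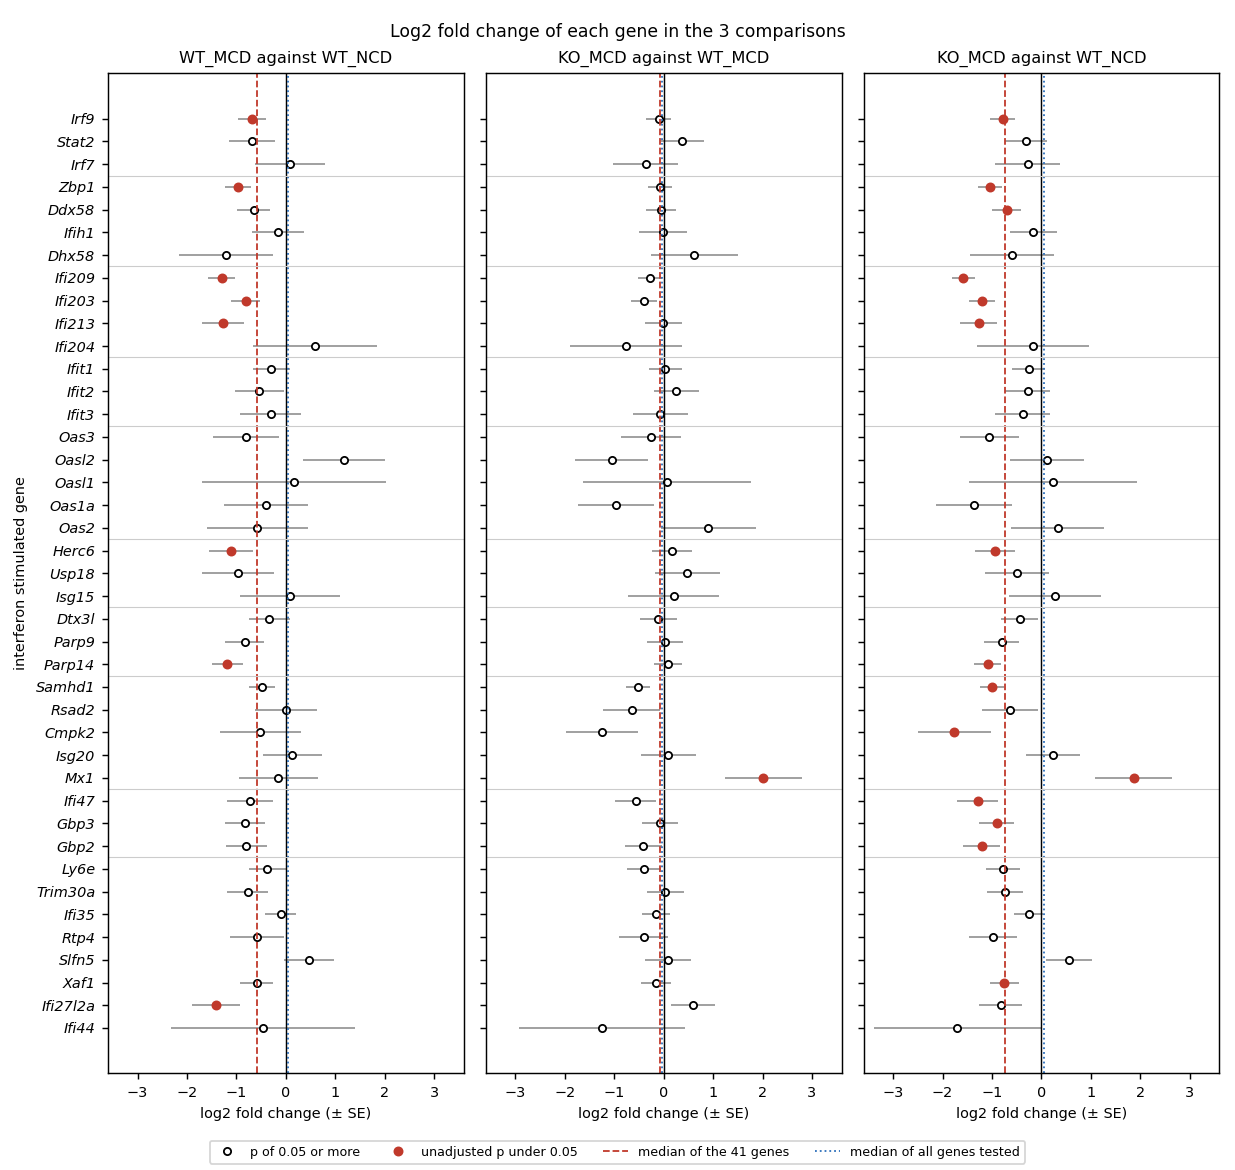
Log2 fold change (x axis) of each of the 41 genes (y axis, ordered by role) in WT_MCD against WT_NCD, KO_MCD against WT_MCD and KO_MCD against WT_NCD, with bars of 1 SE from edgeR. Filled points have an unadjusted p under 0.05, the dashed line is the median of the 41 genes (-0.58, -0.07 and -0.74 in the 3 panels) and the dotted line the median of all genes tested.

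CD73 KO and wild type mice on the same deficient diet were compared to set genotype apart from diet, and here the list as a whole showed no common direction. In KO_MCD against WT_MCD, 25 of 41 had a log2 fold change below 0 (51.9% of all genes tested) and the median was -0.07, against -0.03 over all genes. By edgeR, 0 were lower at an unadjusted p under 0.05 (2.04% of all genes), 1 was higher (1.2%), and 0 passed an adjusted p of 0.05, as over all genes (0%). DESeq2 called 0 of the 41 and limma voom 0. Every KO_MCD library was below both WT_MCD libraries for 4 genes, Ifi209, Ifi47, Ly6e and Samhd1 (9.66% of all genes), and above for 2, Mx1 and Oas2 (8.37% of all genes). These shares of 41, 9.76% and 4.88%, were near or under those of all genes. The list median moved between -0.18 without KO_MCD 1 and 0.10 without WT_MCD 2.

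Mx1 was the 1 gene with an unadjusted p under 0.05. It encodes a dynamin-like GTPase against influenza viruses in the nucleus, and many inbred mouse strains, C57BL/6 among them, carry an allele that makes no working protein. Mx1 (chromosome 16, 97447035 to 97462907, minus strand, GRCm38) was 26.3, 21.3 and 13.9 CPM in KO_MCD, 5.63 and 4.52 in WT_MCD, and 2.33 and 8.93 CPM in WT_NCD. All 3 KO_MCD libraries were above all 4 wild type libraries. The log2 fold change was 2.02 ± 0.78 in KO_MCD against WT_MCD (edgeR, unadjusted p = 0.0345, adjusted p = 1) and 1.86 ± 0.77 in KO_MCD against WT_NCD (adjusted p = 0.55). Leaving out each library in turn, the first of these values stayed between 1.80 and 2.23, but its p was above 0.05 without KO_MCD 1, KO_MCD 2, WT_MCD 1 or WT_MCD 2. In KO_MCD against WT_NCD the value was 1.20 without WT_NCD 1 and 3.14 without WT_NCD 2, and its p was above 0.05 when any 1 library other than KO_MCD 3 or WT_NCD 2 was left out. Oas2, the other gene with every KO_MCD library above WT_MCD, was 7.43, 8.88 and 5.29 CPM in KO_MCD, 3.58 and 4.10 in WT_MCD, and 9.41 and 2.06 CPM in WT_NCD, inside the range of the control diet.

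Among the lower values, Samhd1 had the smallest p in KO_MCD against WT_MCD, with a log2 fold change of -0.51 ± 0.24 (edgeR adjusted p = 1). Its KO_MCD libraries reached at most 767 CPM and its WT_MCD libraries at least 961 CPM. For Ifi209 the KO_MCD libraries were also the lower ones, but the log2 fold change was -0.28 ± 0.24 (adjusted p = 1), against -1.30 between the wild type diets. Cmpk2 at -1.25 ± 0.74 and Oasl2 at -1.05 ± 0.74 had larger values, and both turned positive, at 0.63 and 0.22, without WT_MCD 2. Zbp1 and Parp14, both separated by diet, had log2 fold changes of -0.07 ± 0.24 and 0.09 ± 0.28 in KO_MCD against WT_MCD. On the higher side, Ifi27l2a was 0.59 ± 0.45, Usp18 0.48 ± 0.66 and Stat2 0.38 ± 0.43. The value of Usp18 was -0.15 without WT_MCD 1 and 1.74 without WT_MCD 2.

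Markers of several cell types also differed between libraries, in part along the groups. The summed level of 10 T cell markers was 4642, 5290 and 6126 CPM in KO_MCD, 8802 and 4073 in WT_MCD, and 6813 and 10180 CPM in WT_NCD. In WT_MCD against WT_NCD 9 of the 10 T cell markers had a log2 fold change below 0 (median -0.51), and in KO_MCD against WT_NCD 10 of 10 did (median -0.73). Those medians are close to the -0.58 and -0.74 of the interferon stimulated genes. The medians of 10 Treg markers, Nt5e among them, were nearer to no change, at -0.095 and -0.289, with 7 of 10 below 0 in each. The sum over 12 plasmacytoid dendritic cell markers, the cell type known for making type I interferon, was 935, 596 and 1560 CPM in KO_MCD, 496 and 641 in WT_MCD, and 294 and 285 CPM in WT_NCD, with Tlr9 at 0 in every library. In CPM, every deficient-diet library thus had more of these markers and a smaller sum of interferon stimulated transcripts than both WT_NCD libraries. The sum over 10 NK cell markers was also higher on the deficient diet, at 247 to 281 CPM in KO_MCD, 255 and 467 in WT_MCD, and 98.2 and 103 CPM in WT_NCD. Of 9 tested B cell markers, 8 had a log2 fold change above 0 in KO_MCD against WT_MCD, with a median of 1.715. By edgeR, 6 of the 9 were higher there at an unadjusted p under 0.05 (1.2% of all genes). The sum over all 10 listed was 1234 to 2292 CPM in KO_MCD, 1845 and 1260 in WT_MCD, and 2090 and 2777 CPM in WT_NCD. The part of these cells in the results was not tested.

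**Figure D4:**
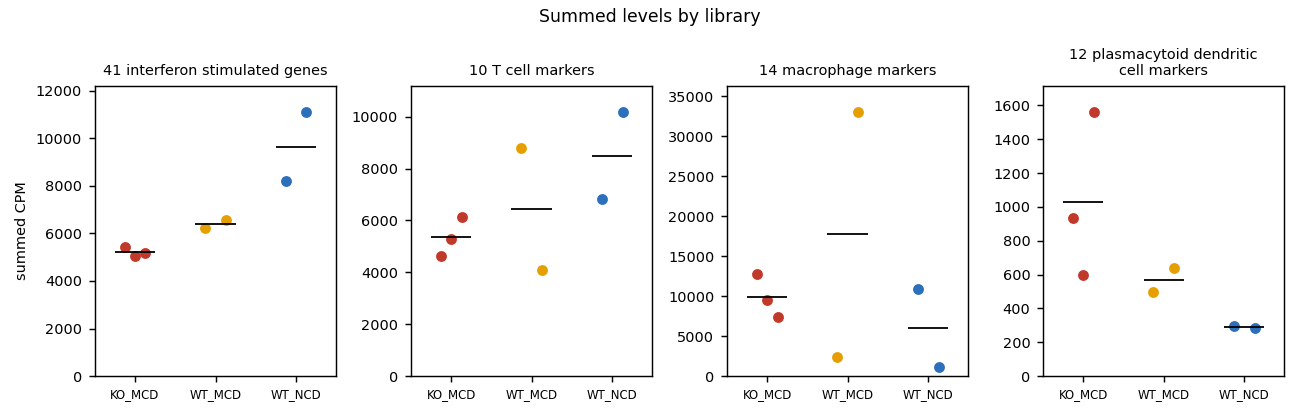
Summed CPM (y axis, from 0, each panel on its own scale) of the 41 interferon stimulated genes, 10 T cell markers, 14 macrophage markers and 12 plasmacytoid dendritic cell markers in each library. Points are libraries and bars group means. The interferon stimulated genes sum to 5041 to 5423 in KO_MCD, 6228 and 6566 in WT_MCD, and 8188 and 11100 in WT_NCD. The macrophage markers are uneven within the wild type groups, at 2430 and 32990 in WT_MCD, and 10830 and 1181 in WT_NCD.

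Levels were also divided by the summed T cell markers of their library, an alternative chosen after the data were seen. The divisor shifts all genes of a library alike and differed within WT_MCD (8802 and 4073 CPM), and over the whole table fewer genes were then lower in every library, so the members' counts are read against those shares. All 5 deficient-diet libraries were below both WT_NCD libraries for 1 gene, Ifi209, in place of 12, where 1.45% of all genes were in place of 7.03%. On this scale Ifi209 was 4.47%, 4.59% and 3.17% of the T cell marker sum in KO_MCD, 3.03% and 6.28% in WT_MCD, and 8.47% and 6.94% in WT_NCD. In WT_MCD against WT_NCD 2 genes were lower in every library, Ifi209 and Ifi213, in place of 16 (4.36% of all genes, in place of 14.8%), and in KO_MCD against WT_MCD 0 were, in place of 4 (3.56% of all genes, in place of 9.66%). Zbp1 was 3.05%, 2.39% and 2.32% of the sum in KO_MCD, 1.52% and 3.75% in WT_MCD, and 3.95% and 2.88% in WT_NCD, so that its groups overlapped. In KO_MCD against WT_NCD 4 genes, Cmpk2, Gbp2, Ifi203 and Ifi209, were lower in every library (3.44% of all genes) and 3, Isg20, Mx1 and Slfn5, were higher (29.9% of all genes). Mx1 was the 1 gene higher in every KO_MCD library than in both WT_MCD libraries (8.22% of all genes), at 0.566%, 0.403% and 0.227% of the sum in KO_MCD, against 0.0639% and 0.111% in WT_MCD.

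**Figure D5:**
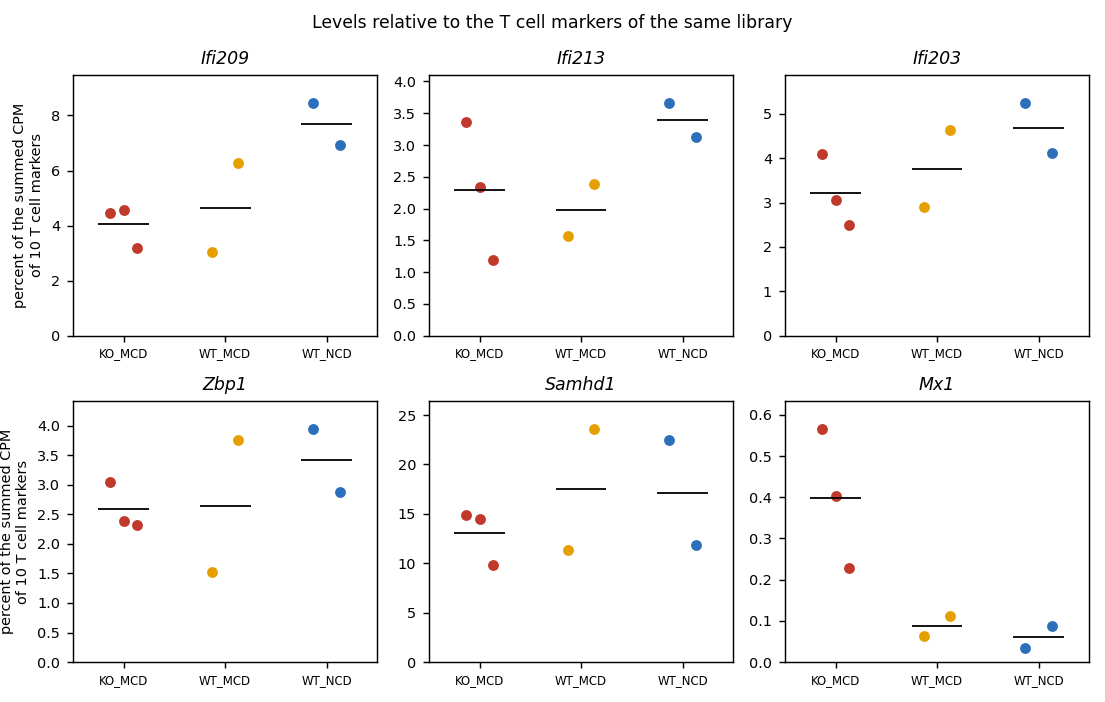
Level of 6 genes as a percent of the summed CPM of 10 T cell markers in the same library (y axis, from 0, each panel on its own scale), with 1 point per library and bars for group means. Ifi209 keeps both WT_NCD points (8.47% and 6.94%) above all others, Zbp1 and Samhd1 do not, and Mx1 keeps its 3 KO_MCD points on top.

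The upstream part of the pathway was measured in the same libraries with lists of its other genes. Of 21 interferon genes, 17 had no count in any library and 2 could be tested. Ifnb1, the gene of interferon beta, was 0.486, 0.181 and 0.238 CPM in KO_MCD, 0 and 0 in WT_MCD, and 2.63 and 0 CPM in WT_NCD, so that 1 control-diet library held most of it. Ifng was 48.6, 56.1 and 41.5 CPM in KO_MCD, 27.5 and 9.56 in WT_MCD, and 27.7 and 5.58 CPM in WT_NCD. Every KO_MCD library was above every wild type library for this cytokine, with a log2 fold change of 1.40 ± 0.75 in KO_MCD against WT_MCD (edgeR adjusted p = 1). The receptor genes gave no common direction. Ifnar1 was 226, 261 and 167 CPM in KO_MCD, 204 and 176 in WT_MCD, and 348 and 141 CPM in WT_NCD, and Ifnar2 was 57.8, 60.9 and 46.2 CPM in KO_MCD, 31.7 and 72.5 in WT_MCD, and 29.8 and 28.4 CPM in WT_NCD. Over the 10 tested receptor and JAK-STAT genes the median log2 fold change was 0.14 in WT_MCD against WT_NCD and -0.07 in KO_MCD against WT_MCD, and by edgeR 1 gene, Ifngr2, was higher and 0 were lower at an unadjusted p under 0.05 in the first.

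Jak1 stayed between 752 and 1103 CPM in all 7 libraries. Tyk2 was 95.2, 151 and 59.0 CPM in KO_MCD, 47.6 and 55.0 in WT_MCD, and 54.6 and 90.0 CPM in WT_NCD. Irf3, the factor that turns on interferon beta, was 54.2, 47.2 and 52.8 CPM in KO_MCD, 80.0 and 72.4 in WT_MCD, and 104 and 125 CPM in WT_NCD. Its 3 groups did not overlap, with log2 fold changes of -0.57 ± 0.27 in KO_MCD against WT_MCD and -0.58 ± 0.29 in WT_MCD against WT_NCD. Irf8, a factor of myeloid, B and plasmacytoid dendritic cells, ran the other way at 471, 363 and 520 CPM in KO_MCD, 278 and 674 in WT_MCD, and 92.1 and 20.9 CPM in WT_NCD. Irf1 was 386, 484 and 176 CPM in KO_MCD, 194 and 116 in WT_MCD, and 625 and 182 CPM in WT_NCD, overlapping throughout. The inhibitor gene Socs1 was 21.8, 21.7 and 44.8 CPM in KO_MCD, 20 and 17.6 in WT_MCD, and 22.9 and 7.73 CPM in WT_NCD. Over the 11 tested negative regulators the median log2 fold change in WT_MCD against WT_NCD was 0.05. Ptpn11, the gene of the phosphatase SHP2, had the smallest p among them, at 41.5, 61.2 and 62.0 CPM in KO_MCD, 70.1 and 44 in WT_MCD, and 19.5 and 21 CPM in WT_NCD.

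Of 20 tested sensor and adaptor genes outside the 41, 1 was higher and 1 lower at an unadjusted p under 0.05 in KO_MCD against WT_MCD by edgeR (1.2% and 2.04% of all genes). Traf3, an adaptor on the way to IRF3, was 52.6, 72.1 and 43.5 CPM in KO_MCD, 21.7 and 18.4 in WT_MCD, and 22.2 and 19.0 CPM in WT_NCD. All 3 KO_MCD libraries stood above all 4 wild type libraries, with a log2 fold change of 1.48 ± 0.39 in KO_MCD against WT_MCD (edgeR adjusted p = 1). Myd88, the adaptor of most Toll-like receptors, was 91.6, 104 and 125 CPM in KO_MCD, 141 and 270 in WT_MCD, and 151 and 110 CPM in WT_NCD, a log2 fold change of -0.94 ± 0.35 in KO_MCD against WT_MCD (adjusted p = 1). Its high library, WT_MCD 2, is the one richest in macrophage markers.

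Other interferon targets outside the 41 had the same sign more often than not. Of 61 tested, 39 had a log2 fold change below 0 in WT_MCD against WT_NCD, with a median of -0.37, and by edgeR 7 were lower and 2, Ccl5 and Ifit1bl2, were higher at an unadjusted p under 0.05 (2.04% and 3.96% of all genes). The smallest p was that of Ms4a6b, a surface protein gene of T cells and myeloid cells, at 483, 404 and 529 CPM in KO_MCD, 574 and 532 in WT_MCD, and 1126 and 1618 CPM in WT_NCD. Its log2 fold change was -1.31 ± 0.30 in WT_MCD against WT_NCD (adjusted p = 0.584). Of 24 interferon gamma targets, 20 had a log2 fold change below 0 and 5, namely Gbp4, Gbp6, Gbp8, Gbp10 and Iigp1, were lower at an unadjusted p under 0.05, with a median of -0.57, next to the -0.58 of the 41. Iigp1, an immunity-related GTPase gene, was 132, 106 and 122 CPM in KO_MCD, 109 and 92.5 in WT_MCD, and 222 and 395 CPM in WT_NCD (log2 fold change -1.61 ± 0.36 in WT_MCD against WT_NCD, adjusted p = 0.559). In KO_MCD against WT_MCD the medians of these lists were -0.05 for the other interferon targets and -0.04 for the interferon gamma targets, close to the -0.03 of all genes.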

How the data were processed

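Per the submitters' processing notes, the alignment used HISAT2 2.1.0 and the GRCm38 build. The authors deposited raw read counts per Ensembl gene ID, 1 column per library. The sources used here do not say which tool, annotation and strand setting made the counts, or which kit the libraries. Of the 53465 IDs, 53360 were found in GENCODE M21 and 105 were not. Exons of 15 members overlap those of another gene (6 on the same strand), and 11 members have near copies with which counting could split reads. Levels are CPM from TMM-scaled library sizes.

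Tests used edgeR 4.0.16 in R 4.3.3 on all 7 libraries (filterByExpr with a minimum count of 10, glmQLFit, glmQLFTest, 1 coefficient per group, no block), with Benjamini-Hochberg adjustment over 14784 genes and a threshold of 0.05. Fold changes use a prior count of 0.125. The common dispersion was 0.833. Libraries of a group differed by far more than sampling noise, with a chi-square of 88.7 to 320 per degree of freedom. The scripts were tested on simulated data. Alternatives were RLE and upper-quartile scaling, 2 other filters, DESeq2 1.42.0, limma 3.58.1 voom, the replicate number as a block, 2 groups alone, members without near copies, and each library left out. A crossed block and a run without both WT_NCD 1 and WT_MCD 2 were added after the data were seen. So were counts of separated genes and their rescaling to T cell markers.

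The 41 genes and all lists were chosen with earlier results of these data known. Values in every library are given for the 12 members with the highest mean CPM, for the 5 members with the smallest p in each direction per comparison (mean of at least 5 CPM), and for part of the pathway genes the rule names, 1 of which is not reported here. Further members with their roles, and Ifi205, Ifi206, Ifi207, Ifi208, Ifi211, Mndal, Lyz2, Ccl5, Ifit1bl2 and Gbp6, were named after their values were seen. Counts of 0 carry a floor of 3 counts.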

Additional observations from a re-analysis of the deposited data

How the results depend on the processing

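The medians of the 41 genes kept their sign under every scaling, filter and tool run, and the counts past an adjusted p of 0.05 stayed at 0 except in DESeq2, with 3 in WT_MCD against WT_NCD and 5 in KO_MCD against WT_NCD, and in edgeR with no filter on low counts, with 1 (Ifi209) in KO_MCD against WT_NCD. Over the whole table DESeq2 called 393, 148 and 746 genes in WT_MCD against WT_NCD, KO_MCD against WT_MCD and KO_MCD against WT_NCD, and edgeR with no filter 54, 1 and 140. The cause of these differences was not tested. At an unadjusted p under 0.05, the 1 higher gene in KO_MCD against WT_NCD became 0 with 2 groups alone, with no filter and under upper-quartile scaling, and limma voom made 1 lower gene of 0 in KO_MCD against WT_MCD. Without near copies, 4 of 8 lower genes remained in WT_MCD against WT_NCD and 9 of 14 in KO_MCD against WT_NCD, by construction.

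Same-numbered libraries did not deviate together (correlation -0.102 to 0.03 over 14784 genes), but this cannot decide whether the numbers pair them. In a group of 2 libraries the deviations mirror each other, so both pairs of WT_MCD with WT_NCD gave the same value, -0.102. With the replicate block, 8 genes were lower and 0 higher at an unadjusted p under 0.05 in KO_MCD against WT_NCD. Over all 14784 genes, 393 were lower and 492 higher. In KO_MCD against WT_MCD 0 were higher, and 165 over all genes. A crossed block on WT_MCD and WT_NCD alone left 3 lower genes, where 194 of 13297 tested genes were lower.

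Single genes close to no change turned sign. In WT_MCD against WT_NCD, Irf7 was -0.157 with limma voom, -0.015 with the replicate block and -0.006 under upper-quartile scaling. In KO_MCD against WT_MCD, Ifi213 was 0.013 in DESeq2, 0.011 under RLE scaling, 0.0 with a filter of 1 CPM in 2 libraries and 0.253 with the replicate block.

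With libraries left out, counts at an unadjusted p under 0.05 in WT_MCD against WT_NCD ran from 3 to 10 for lower and 0 to 1 for higher genes, in KO_MCD against WT_MCD from 0 to 1 and 0 to 2, and in KO_MCD against WT_NCD from 5 to 17 and 0 to 1. The medians ran from -0.851 to -0.399 in WT_MCD against WT_NCD, from -0.184 to 0.103 in KO_MCD against WT_MCD and from -0.813 to -0.458 in KO_MCD against WT_NCD. Log2 fold changes that turned sign ran, in WT_MCD against WT_NCD, from -0.827 to 0.346 for Dtx3l, -1.758 to 3.286 for Ifi204, -1.25 to 0.107 for Ifi47, -1.241 to 0.745 for Irf7, -0.196 to 0.575 for Isg20, -0.781 to 0.209 for Ly6e, -0.095 to 2.087 for Oasl2 and -0.518 to 0.912 for Slfn5. In KO_MCD against WT_MCD they ran from -2.001 to 0.634 for Cmpk2, -0.256 to 0.035 for Dtx3l, -0.297 to 0.209 for Gbp3, -0.262 to 0.315 for Ifi213, -1.676 to 0.219 for Oasl2, -0.06 to 0.652 for Stat2, -0.302 to 0.335 for Trim30a, -0.147 to 1.739 for Usp18 and -0.125 to 0.026 for Zbp1. In KO_MCD against WT_NCD they ran from -0.906 to 0.238 for Dtx3l, -0.102 to 0.669 for Isg20, -0.381 to 1.8 for Oas2 and -0.43 to 1.035 for Oasl2. In these runs a group left with 1 library was assumed to vary like the others.

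Counts of genes with every library on 1 side grow when a library is left out, since fewer libraries must agree. Their shares over all genes are not reported here, so the left-out counts cannot be read as a result about the members. In WT_MCD against WT_NCD they ran from 20 to 27 lower and 0 to 9 higher, in KO_MCD against WT_MCD from 6 to 18 and 3 to 12, and in KO_MCD against WT_NCD from 19 to 25 and 1 to 7. For all 5 deficient-diet libraries against WT_NCD they ran from 12 to 22 lower and 0 to 4 higher. Relative to the T cell markers the counts were 2 lower in WT_MCD against WT_NCD, 0 lower and 1 higher in KO_MCD against WT_MCD, 4 lower and 3 higher in KO_MCD against WT_NCD, and 1 lower for the 5 libraries. A p that misses the threshold does not show that levels were equal.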
